A study of Mus musculus with 4 samples.

Results

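The replication-dependent histone genes are the multicopy genes that supply most of the histone protein on which newly copied DNA is wrapped. They were taken as all genes whose symbol starts with Hist1h, Hist2h, Hist3h or Hist4h in the annotation of both RNA libraries, which gave 67 of 32285 genes: 6 for the linker histone H1, and 18 for H2A, 18 for H2B, 12 for H3 and 13 for H4, the core histones. The RNA came from MK, a mouse keratinocyte line, keratinocytes being the main cell type of the epidermis. Of the 2 RNA libraries, 1 was labelled Diff_MK and 1 MK, and the labels do not say what Diff stands for. Both groups carry the same line, cell type and Dox labels (Dox is the usual short form of doxycycline, which switches on inducible transgenes). Both share a growth protocol with E low medium and 15% serum, and both were sorted for GFP, which marks cells with a lineage tag. With 1 library per group there is no replicate and no test, and all differences are between 2 single libraries. Intervals are exact 95% intervals that cover counting error only.

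Replication-dependent histone genes lie in clusters and are switched on together when a cell enters S phase, the phase in which DNA is copied. Their messenger RNAs normally have no introns and no poly(A) tail. They end a few bases after a short stem-loop, which the stem-loop binding protein (Slbp) holds and which ties the messenger's life to DNA synthesis. Some of these genes are known also to give polyadenylated messengers, which end further downstream at an ordinary poly(A) signal. The libraries were made from poly(A) RNA with 3′ chemistry, in which a primer of T bases captures runs of A, so what follows counts captured histone molecules and not all histone messengers. A unique molecular identifier (UMI) stands for 1 captured molecule, and levels, given per 1000000 UMIs of a library or class (CPM), were not divided by gene length.

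The Diff_MK library had 6912 cells after filtering, 103885150 UMIs and a median of 14223.5 UMIs per cell, and the MK library had 7175 cells, 115181759 UMIs and a median of 15599. The libraries shared 9 cell barcodes. Keratinocyte markers were present: all 8 listed keratinocyte genes were measured, and 6 of them were higher in Diff_MK, with Krt14 at 12790 CPM in Diff_MK and 6295 CPM in MK. Markers of other cell types were near 0. The 5 fibroblast genes summed to 0.347 and 0.573 CPM in Diff_MK and MK, the 5 immune genes to 0.0578 and 0.174 CPM, the 5 melanocyte genes to 1.27 and 1.502 CPM, and the 4 endothelial genes to 2.78 and 2.24 CPM.

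The stem-loop is shown first, since it marks the usual end of these messengers. In the GENCODE vM21 transcripts on GRCm38, 46 of the 67 genes held a stem-loop of 16 bases with arms of 6 bases that pair in full and a loop of 4. The 26 genes with the most frequent form and the other genes for H1, H2A, H2B and H3 had the bases ggctc in the first arm, while the 12 H4 genes with a stem-loop had ggccc or ggtcc there. The stem-loops of the members that lead the results below are given with 5 bases on either side (fewer where the transcript ends), with the stem-loop in capitals, 5′ to 3′ on the strand of the gene.
Hist1h1c, chr13:23738808-23740367, plus strand: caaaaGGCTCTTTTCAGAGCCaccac
Hist1h2ae, chr13:23570517-23571220, minus strand: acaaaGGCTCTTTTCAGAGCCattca
Hist1h2ac, chr13:23681467-23683948, minus strand: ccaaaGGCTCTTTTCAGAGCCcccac
Hist1h2ap, chr13:21833026-21833507, minus strand: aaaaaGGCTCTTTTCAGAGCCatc
Hist1h4i, chr13:22040636-22041362, minus strand: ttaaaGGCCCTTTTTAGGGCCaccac
The annotated Hist1h2ap transcript stops 3 bases after its stem-loop, whereas those of Hist1h2ae, Hist1h4i, Hist1h1c and Hist1h2ac run on for 151, 330, 840 and 2010 bases. Near the annotated end, Hist1h1c, Hist1h2ae and Hist1h4i hold a poly(A) signal (AATAAA or ATTAAA, in capitals), printed with the bases around it.
Hist1h1c: gcttctAATAAAaagcgtttagttttcatt
Hist1h2ae: ttctccAATAAAtgggtcaatttttttcag
Hist1h4i: gtttacATTAAAagtattctatgctaa

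Histone transcripts as a whole were slightly less abundant in the Diff_MK library, but the sums of the types did not move together. The 67 genes summed to 608 CPM (63210 UMIs) in Diff_MK and 685 CPM (78908 UMIs) in MK, a ratio of 0.888 (interval 0.879 to 0.898). H1 genes held 343 CPM in Diff_MK and 403 CPM in MK (ratio 0.850), and H2A genes 100.8 and 129.6 CPM (0.777). The H2B sum was higher, at 66.4 CPM in Diff_MK and 44.3 CPM in MK, a ratio of 1.5004 (interval 1.45 to 1.56). Yet 8 of the 10 measured H2B genes had a ratio below 1, against 67.5% of all genes that reached 1 CPM in either library. The median log2 ratio of these H2B genes was -0.23, beside -0.15 over all genes. H3 genes (34.9 and 37.8 CPM, ratio 0.923) and H4 genes (63.6 and 70.2 CPM, ratio 0.906) were slightly lower in Diff_MK when scaled by total UMIs, and at ratios of 1.03 and 1.01 when scaled by the median ratio of genes.

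Most captured histone molecules came from few genes. The 10 leading members held 83.7% of histone UMIs in each library. Hist1h1b alone held 26.0% in Diff_MK and 33.1% in MK. Of the 67 genes, 62 had UMIs in both libraries and 3 had none in either: Hist1h4m, and Hist1h2aa and Hist1h2ba, whose proteins are known from the testis. A count of 0 allows a level of up to 0.0289 CPM in Diff_MK and 0.0260 CPM in MK (3 UMIs). The remaining analysis by gene rests on the 42 members that reached 1 CPM in either library. The other 25 reached at most 0.837 CPM in Diff_MK and 0.903 CPM in MK. Histone genes resemble each other, which limits how surely a molecule can be given to one of them. In 29 of the 42 members, under 50% of the 90-base windows of the transcript also occur in other transcripts. The rest are uncertain as single genes, and of those described below the shared windows are 100% in Hist2h3c1, 92.4% in Hist1h2ap, 91.9% in Hist1h2br, 83.9% in Hist1h2an, 76.8% in Hist1h2ag, 71.6% in Hist1h2bk, 66.5% in Hist1h2af, 61.98% in Hist2h3c2 and 50.2% in Hist1h3e.

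**Figure D1:**
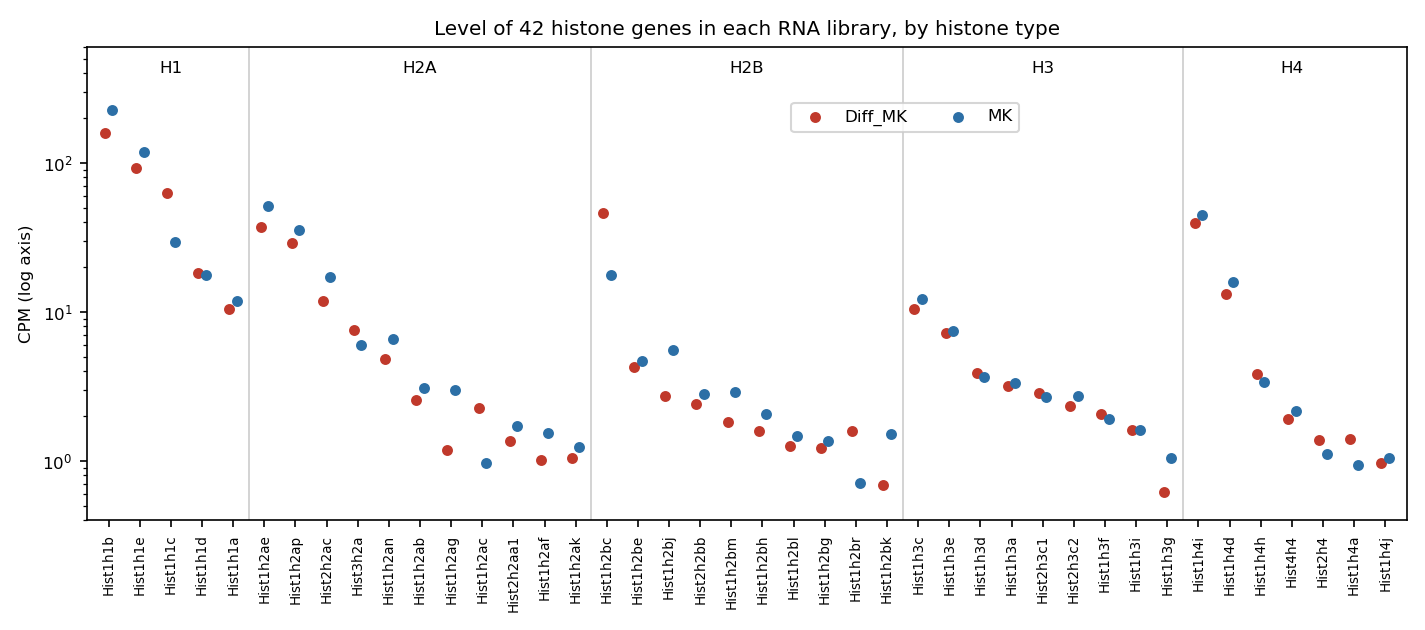
CPM (log axis) of the 42 members that reached 1 CPM in either library, ordered by histone type and mean level, with red points for the Diff_MK library and blue points for the MK library. H1 genes lead, with Hist1h1b at 158.0 CPM in Diff_MK and 226.9 CPM in MK, and the red point lies clearly above the blue one for Hist1h1c, Hist1h2bc, Hist1h2ac and Hist1h2br.

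Of the 42 members, 5 (11.9%) were at least 1.5-fold higher in Diff_MK, against 6.32% of all 11511 genes at the same minimum, and 6 (14.3%) were at least 1.5-fold lower, against 10.4% of all genes. By direction alone, 12 had a ratio above 1 and 30 (71.4%) below 1, against 67.5% of all genes below 1. Their median log2 ratio was -0.21, beside -0.15 over all genes. The members past the fold were few at each end. The 5 higher members were Hist1h2bc, Hist1h2ac, Hist1h2br, Hist1h1c and Hist1h4a, and the 6 lower ones Hist1h2ag, Hist1h2bk, Hist1h2bj, Hist1h3g, Hist1h2bm and Hist1h2af.

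The H1 genes encode the linker histones, which bind the DNA between nucleosomes and compact it. Hist1h1b, the leading member in both libraries, had 158.0 CPM in Diff_MK and 226.9 CPM in MK, a ratio of 0.696 (0.683 to 0.710). Hist1h1e had 93.1 CPM in Diff_MK and 117.6 CPM in MK, a ratio of 0.792 (0.771 to 0.812). Its transcript overlaps that of Hist1h2be over 496 bases on the same strand, so reads there cannot be assigned to one of them with certainty. Hist1h1c was the exception among the abundant H1 genes, with 63.2 CPM in Diff_MK and 29.3 CPM in MK, a ratio of 2.16 (2.07 to 2.25). Hist1h1a stood at 10.4 and 11.9 CPM (0.876, with an interval below 1), and Hist1h1d at 18.2 and 17.6 CPM (1.03, 0.970 to 1.10) in Diff_MK and MK. Hist1h1t, which encodes the testis linker histone, had 3 UMIs in Diff_MK and 1 in MK. Without Hist1h1c the H1 sum was 279.7 CPM in Diff_MK and 373.9 CPM in MK, a ratio of 0.748.

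H2A and H2B pair into the dimers that flank the core of the nucleosome. The leading H2A gene, Hist1h2ae, had 37.0 CPM in Diff_MK and 51.7 CPM in MK, a ratio of 0.717 (0.688 to 0.746). Hist1h2ap had 29.2 and 35.4 CPM (0.824, 0.786 to 0.864) and Hist2h2ac, from the cluster on chromosome 3, 11.8 and 17.1 CPM (0.691, 0.643 to 0.742) in Diff_MK and MK. Hist1h2an was also lower, at 4.80 CPM in Diff_MK and 6.61 CPM in MK. Of the 11 H2A members measured, 9 had a ratio below 1, against 67.5% of all genes. The lowest was Hist1h2ag at 1.18 CPM in Diff_MK and 2.97 CPM in MK (0.399, 0.322 to 0.491), with most of its transcript windows shared as given above. The 2 above 1 were Hist1h2ac and Hist3h2a. Hist1h2ac had 2.26 CPM in Diff_MK and 0.964 CPM in MK, a ratio of 2.35 (1.87 to 2.97) that rests on 235 and 111 UMIs. Hist3h2a, at 7.53 and 5.98 CPM (1.26, 1.13 to 1.40), lies inside the same-strand gene Trim17, so its reads cannot be told apart from that gene's with certainty.

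The H2B sum was carried by 1 gene. Hist1h2bc had 45.8 CPM (4759 UMIs) in Diff_MK and 17.6 CPM (2025 UMIs) in MK, a ratio of 2.61 (2.47 to 2.75), the highest of the 42 members. Without it the other 17 H2B genes summed to 20.6 CPM in Diff_MK and 26.7 CPM in MK, a ratio of 0.772, close to that of the H2A genes. Hist1h2bj (2.70 CPM in Diff_MK, 5.51 CPM in MK, ratio 0.491) and Hist1h2bk (0.683 and 1.52 CPM, ratio 0.450) were the lowest H2B members. Hist1h2be, at 4.28 and 4.67 CPM, had an interval that held 1 (0.807 to 1.04). Hist1h2br stood at 1.58 CPM in Diff_MK and 0.712 CPM in MK (2.22, 1.69 to 2.93). With 91.9% of its windows shared, that value is uncertain.

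H3 and H4 form the tetramer at the centre of the nucleosome, and their sums over whole libraries differed least between Diff_MK and MK. The leading H3 gene, Hist1h3c, had 10.4 CPM in Diff_MK and 12.2 CPM in MK, a ratio of 0.852 (0.786 to 0.923). Hist1h3e stood at 7.17 and 7.48 CPM (0.958, 0.868 to 1.06) and Hist1h3d at 3.87 and 3.66 CPM (1.06, 0.921 to 1.22) in Diff_MK and MK, and both intervals held 1. Of the 9 H3 members measured, 1 was past 1.5-fold, Hist1h3g, at 0.616 CPM in Diff_MK and 1.05 CPM in MK. The leading H4 gene, Hist1h4i, had 39.5 CPM in Diff_MK and 44.7 CPM in MK, a ratio of 0.885 (0.849 to 0.922). Hist1h4d stood at 13.2 and 15.7 CPM (0.838, 0.780 to 0.899) and Hist1h4h at 3.81 and 3.39 CPM (1.12, 0.974 to 1.29) in Diff_MK and MK. Hist1h4a lay just past the fold, at 1.41 and 0.929 CPM, a ratio of 1.51 (1.17 to 1.96) from 146 and 107 UMIs. The H4 genes encode the same protein, and which of them supplied a molecule is known only as far as their transcripts differ.

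**Figure D2:**
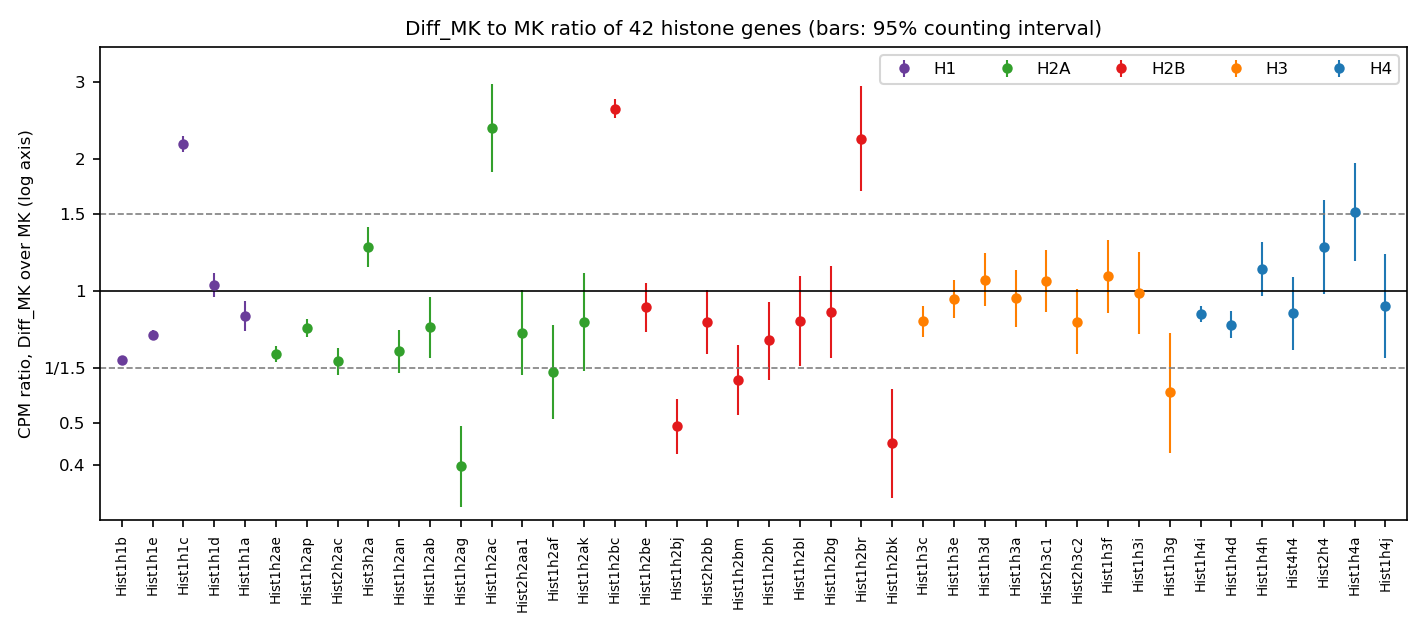
Ratio of CPM in Diff_MK over MK (log axis) for the same 42 members, coloured by histone type, with bars for the exact 95% counting interval and dashed lines at 1.5-fold. Hist1h2bc (2.61), Hist1h2ac (2.35), Hist1h2br (2.22) and Hist1h1c (2.16) stand above the upper line, Hist1h2ag (0.399) is lowest, and the H3 and H4 genes gather near 1.

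Because these genes follow S phase, cells were next grouped by their cell-cycle transcripts, using an S-phase list of 38 genes and a G2/M list of 52 genes that hold no member. With each cell thinned to 7500 UMIs, the S-high class is the top 20% of cells of both libraries by S-phase list UMIs, more than 22 of them. The G2M-high class is the rest with more than 64 G2/M list UMIs. The low-cycle class lies at or below the median of both lists (14 and 37 UMIs), and the other cells are intermediate. These classes are ranges of a score and not cell types. The S-high class held 9.54% of Diff_MK cells (8.83 to 10.3%, 599 cells) and 28.9% of MK cells (27.8 to 29.97%, 1975 cells). The low-cycle class held 51.7% of Diff_MK cells (3244) and 19.98% of MK cells (1366). All 38 S-phase list genes and 49 of the 52 G2/M list genes were lower in Diff_MK.

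Within classes the ratio of Diff_MK over MK for all members summed ranged from 0.949 to 1.58. In S-high cells the members summed to 1064 CPM in Diff_MK and 870 CPM in MK, a ratio of 1.22 (1.20 to 1.25). By type this ratio was 1.25 for H1 and H2A, 1.14 for H2B, 1.27 for H3 and 0.980 for H4 (0.900 to 1.07). In low-cycle cells the members summed to 391 CPM in Diff_MK and 248 CPM in MK, a ratio of 1.58 (1.53 to 1.63). By type it was 1.66 for H1, 1.21 for H2A, 1.94 for H2B, 1.01 for H3 (0.892 to 1.14) and 1.48 for H4. Hist1h1c and Hist1h2bc gave 91.5 and 73.6 CPM of the low-cycle sum in Diff_MK, and 34.6 and 33.6 CPM in MK. The intermediate class had 760 and 802 CPM (ratio 0.949) and the G2M-high class 659 and 661 CPM (0.998) in Diff_MK and MK. H4 was at 0.851 in the intermediate and 0.870 in the G2M-high class. The other types ranged from 0.951 to 1.01 in the intermediate and from 0.996 to 1.17 in the G2M-high class. Low-cycle cells were shallower in Diff_MK, with a median of 12519.5 UMIs against 15069.5 in MK, and S-high cells deeper, with 16057 against 14547. The low-cycle classes also differed in their cell-cycle transcripts, with medians of 3 S-phase and 8 G2/M list UMIs per thinned cell in Diff_MK and 5 and 12 in MK. The part of these in the ratios was not tested. The ratio over whole libraries, 0.888, lay below that of every class. It covers all kept cells, while the classes hold only cells with 7500 or more UMIs. The classes also made up different shares of each library, and the part of either in the ratio was not tested. When the 10 deciles of S-phase list UMIs were given equal weight, the members averaged 689 CPM in Diff_MK and 601 CPM in MK, a ratio of 1.15.

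Summed over all members, S-high cells had more histone transcripts than low-cycle cells in both libraries, 2.72-fold in Diff_MK and 3.51-fold in MK. The types differed. The ratio was 3.57 in Diff_MK and 4.74 in MK for H1, and 5.64 and 5.42 for H2A. It was 2.65 and 2.10 for H3, and 1.28 and 1.93 for H4. The H2B sum was lower in S-high cells, at 0.496 (0.448 to 0.549) and 0.844 (0.775 to 0.920). The median over the 10 measured H2B members was 2.66 and 2.88. Of the 42 members, 26 in Diff_MK (61.9%) and 30 in MK (71.4%) were at least 1.5-fold higher in S-high cells, against 25.7% and 12.3% of all genes. Hist1h1b, the most abundant member, was among the steepest. It had 434 CPM in S-high and 33.4 CPM in low-cycle cells of Diff_MK, a ratio of 13.0 (12.2 to 13.8), and 344 and 32.2 CPM in those of MK, a ratio of 10.7 (9.89 to 11.5). Of the 42 members, 9 had ratios above 5 in both libraries, the other 8 being Hist1h3c (13.2 in Diff_MK, 5.15 in MK), Hist1h2af (12.7, 5.81), Hist1h3g (8.41, 5.28), Hist1h2an (10.7, 7.26), Hist1h2ap (9.49, 7.92), Hist1h2ae (7.77, 7.04), Hist2h2ac (7.01, 6.48) and Hist1h1a (5.33, 7.76). The share of all genes above 5 in both libraries was not computed. For Hist1h3c, Hist1h2af, Hist1h3g, Hist1h2an and Hist1h1a the interval reached below 5 in Diff_MK, in MK or in both. That of Hist1h2af ran from 4.78 to 39.4 in Diff_MK and from 2.65 to 15.1 in MK. Hist1h1e (3.42, 3.47) and Hist1h4d (2.47, 2.69) were less steep.

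A few members were lower in S-high cells, a share above that of all genes in Diff_MK and below it in MK. In Diff_MK 6 members (14.3%) were at least 1.5-fold lower in S-high than in low-cycle cells, against 8.73% of all genes, and in MK 4 members (9.52%), against 15.0% of all genes. The interval lay below 1 for 5 of the 6 in Diff_MK and for 2 of the 4 in MK. Hist1h2bc, Hist2h3c1 and Hist2h3c2 were past the fold in both libraries. The interval of Hist2h3c1 lay below 1 in Diff_MK (0.453, 0.227 to 0.820) and held 1 in MK (0.647, 0.409 to 1.02), and that of Hist2h3c2 held 1 in Diff_MK (0.561, 0.280 to 1.03) and lay below 1 in MK (0.167, 0.0983 to 0.270). Hist1h2bc had 14.6 CPM in S-high and 73.6 CPM in low-cycle cells of Diff_MK, a ratio of 0.199 (0.168 to 0.235), and 9.21 and 33.6 CPM in those of MK, a ratio of 0.274 (0.238 to 0.315). Hist1h1c had 39.7 CPM in S-high and 91.5 CPM in low-cycle cells of Diff_MK (0.434, 0.391 to 0.481), and 26.6 and 34.6 CPM in those of MK (0.770, 0.697 to 0.851). Hist3h2a was at 0.766 (0.578 to 1.001) in Diff_MK and 0.669 (0.524 to 0.852) in MK. Hist1h4i lay between these patterns, with a ratio of 1.09 (0.979 to 1.21) in Diff_MK and 2.07 (1.87 to 2.30) in MK.

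**Figure D3:**
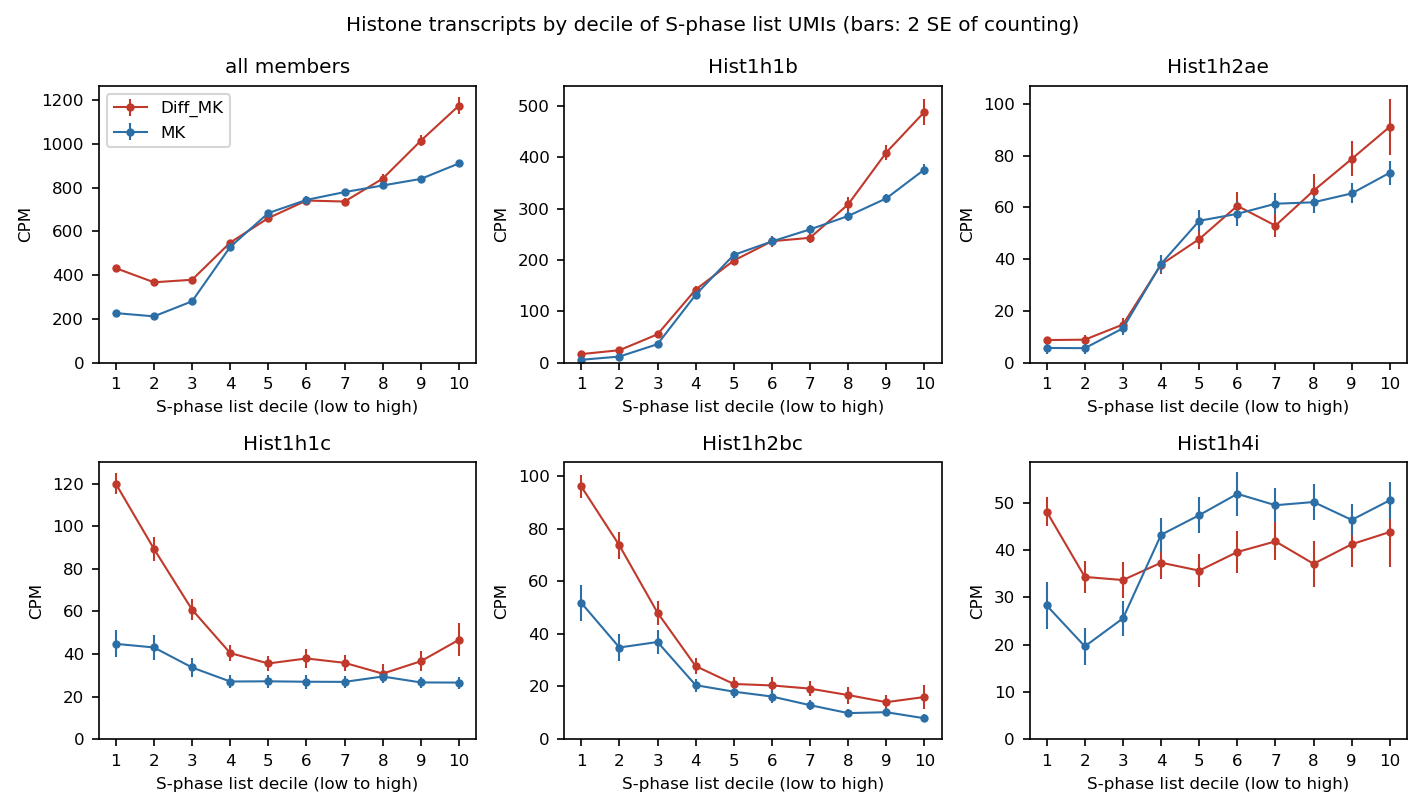
CPM of all members summed and of 5 members across deciles of S-phase list UMIs, ranked over both libraries, with red for Diff_MK, blue for MK and bars of 2 standard errors of counting. Hist1h1b and Hist1h2ae climb with the decile in both libraries, Hist1h1c and Hist1h2bc are highest in the lowest deciles, with Diff_MK above MK in 10 of 10 deciles, and the Hist1h4i curves cross.

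Across deciles 1, 5 and 10 the members together had 432, 661 and 1175 CPM in Diff_MK, and 226, 684 and 911 CPM in MK. The libraries lay close together in the middle and apart at both ends. Hist1h1b had 16.5, 198.6 and 488 CPM in deciles 1, 5 and 10 of Diff_MK, and 5.43, 209.7 and 376 CPM in those of MK. Hist1h1c had 120.0, 35.6 and 46.7 CPM in those deciles of Diff_MK, and 44.8, 27.2 and 26.6 CPM in MK. Hist1h2bc had 96.0, 20.9 and 15.99 CPM in Diff_MK, and 51.8, 18.03 and 7.91 CPM in MK. With equal weight for each decile the ratio of Diff_MK over MK was 1.71 for Hist1h1c and 1.61 for Hist1h2bc, both higher in 10 of 10 deciles, and 1.13 for Hist1h1b, higher in 8 of 10. Hist1h4i had 48.1 CPM in the lowest decile of Diff_MK and 28.3 CPM in that of MK, but 43.8 and 50.5 CPM in the highest, and 0.952 with equal weights. The lowest decile held 1513 Diff_MK and 265 MK cells, and the highest 189 and 899.

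Compared between libraries within a class, 12 of the 42 members (28.6%) were at least 1.5-fold higher in low-cycle Diff_MK than in low-cycle MK cells, against 6.36% of all genes, and 6 (14.3%) at least 1.5-fold lower, against 24.8% of all genes. Hist1h1c (ratio 2.65, 2.45 to 2.86), Hist1h1d (2.28, 1.90 to 2.74), Hist1h2bc (2.19, 2.02 to 2.37) and Hist1h4i (1.66, 1.501 to 1.83) were among the higher, while Hist1h1b was at 1.04 (0.946 to 1.13). The difference in list UMIs between the low-cycle classes given above stands beside these counts too. In S-high cells 7 members (16.7%) were higher by that fold, against 6.76% of all genes, and 2 (4.76%) lower, against 4.98%. Hist1h3c (1.56, 1.32 to 1.85) and Hist1h2bc (1.59, 1.29 to 1.95) were among the higher there, and Hist1h2ag (0.531, 0.303 to 0.882) was lower. Members of a few CPM rest on few UMIs in a single class, so these counts are descriptions.

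The same contrast showed in the share of cells with a UMI. With cells thinned to 7500 UMIs, Hist1h1b was detected in 40.8% of Diff_MK cells (39.5 to 41.98%) and 57.3% of MK cells (56.1 to 58.5%), or 49.8% and 67.8% without thinning. In the lowest S-phase decile its share was 10.8% in Diff_MK and 3.02% in MK, and in low-cycle cells 15.4% and 13.5%. The part of free RNA in these shares was not tested. Hist1h2bc was detected in 23.6% of Diff_MK cells (22.6 to 24.7%) and 9.71% of MK cells (9.02 to 10.4%), or 34.9% and 17.2% without thinning, and in 41.8% and 28.3% of cells of the lowest decile. Hist1h1c was detected in 33.2% of Diff_MK cells (32.1 to 34.4%) and 18.3% of MK cells (17.4 to 19.2%), or 49.3% and 32.6% without thinning, and in 52.5% and 26.0% of the lowest decile. At least 1 member was detected in 90.4% of Diff_MK cells (89.6 to 91.1%) and 89.4% of MK cells (88.6 to 90.1%), and in 87.6% and 72.7% of low-cycle cells, with a median of 3 histone UMIs per thinned cell in Diff_MK and 4 in MK.

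The members were also grouped by their annotated 3′ ends, a grouping chosen after the values had been seen. For a gene with a stem-loop in any annotated transcript, the longest such transcript was used. Of the 67 genes, 23 stop within 100 bases of the stem-loop and 23 run on for more than 100 bases. Among the others, 3 are spliced to an end without a stem-loop, and 18 have no stem-loop in the annotated model, Hist1h1b among them. The 12 measured members that stop at the stem-loop had median ratios of S-high over low-cycle cells of 4.86 in Diff_MK and 4.80 in MK. None of them was 1.5-fold higher in Diff_MK than in MK, 5 were 1.5-fold lower, and 1 of 12 had a ratio above 1. Beside these and the following counts, 6.32% of all 11511 genes were 1.5-fold higher, 10.4% were lower by that fold and 67.5% had a ratio below 1. The 20 measured members that run past the stem-loop had median S-high over low-cycle ratios of 1.19 in Diff_MK and 1.62 in MK. Of these, 3 were 1.5-fold higher in Diff_MK, none was lower by that fold, and 9 of 20 had a ratio above 1. The 8 measured members with no stem-loop in the model had the highest medians of S-high over low-cycle cells, 6.21 in Diff_MK and 5.64 in MK. None of these 8 had a ratio of Diff_MK over MK above 1, and 1 was 1.5-fold lower. Some of their models are short, such as 381 bases for Hist1h2bl, 393 for Hist1h2an and 411 for Hist1h3i. A model that stops before the stem-loop would fall in this group too, so it is not known that these genes lack one.

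The 2 measured spliced members, Hist1h2bc and Hist1h2br, were both more than 1.5-fold higher in Diff_MK. The value of Hist1h2br is uncertain, with 91.9% of its windows shared. The Hist1h2bc transcript (ENSMUSG00000018102, chr13:23684199-23692908, plus strand) has 2 exons and 1156 bases and holds no stem-loop. A poly(A) signal that starts 10 to 40 bases before the annotated end was found in 16 of the 67 genes. The 11 of these that were measured had a median log2 ratio of 0.17, 7 with a ratio above 1, while the 31 measured members without it had a median of -0.24, 5 with a ratio above 1. At least 1.5-fold higher in Diff_MK were 3 of the 11 and 2 of the 31. Those 2, Hist1h2bc and Hist1h2ac, had the highest ratios of the 42 members. Lower by that fold were 0 of the 11 and 6 of the 31. The 31 include the 8 members with no stem-loop in the model, whose models may stop short of a signal too. Stretches of A within a transcript can also capture a T primer. The most A bases in any 20 ranged from 7 to 14 in members without a stem-loop in the model, from 8 to 16 in those that stop at it and from 8 to 18 in those that run past it. How each molecule was captured was not tested.

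**Figure D4:**
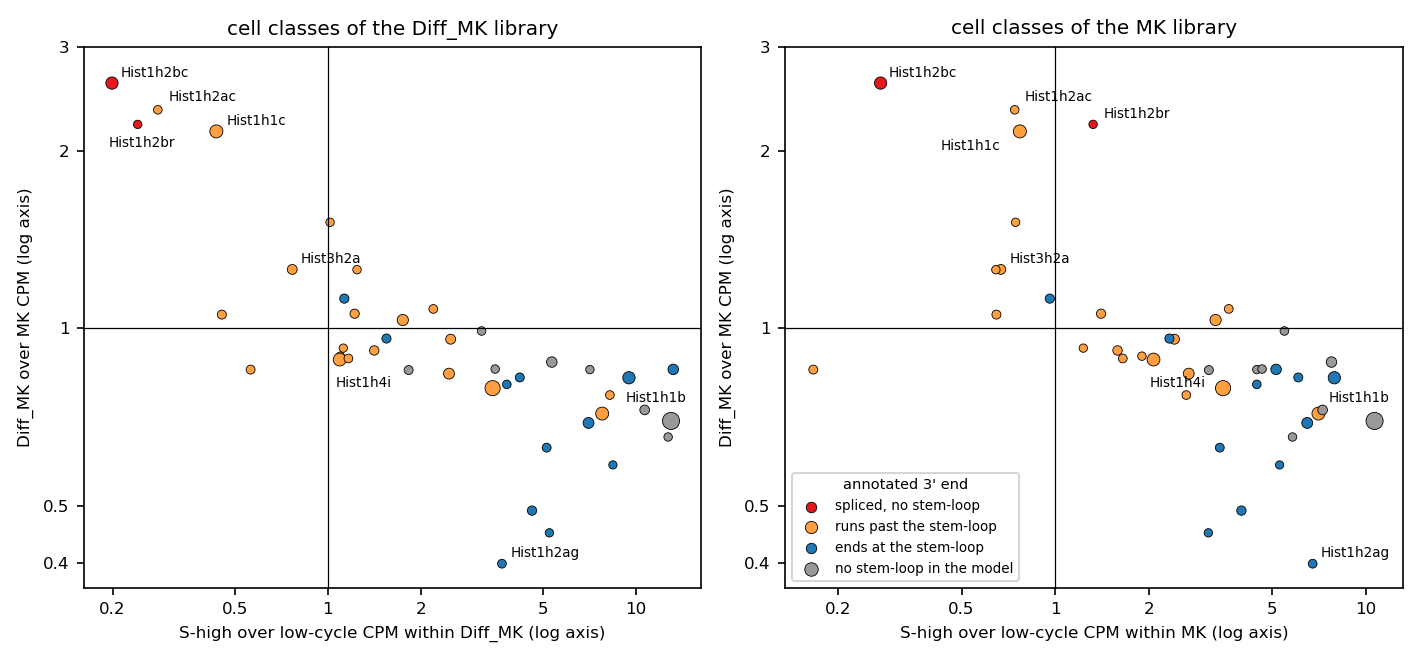
Ratio of CPM in Diff_MK over MK against the ratio of S-high over low-cycle cells within Diff_MK (left) and within MK (right), both axes log, for the 42 members, coloured by annotated 3′ end and sized by mean CPM. Hist1h2bc and Hist1h1c sit at the upper left in both panels, and members that stop at the stem-loop sit mostly at the lower right. The vertical axis and each horizontal axis share cells, so no correlation is given.

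Promoter windows, 250 bases before and 50 after the start of transcription, were taken from RefSeq on GRCm38.p6, where 62 of the 67 genes matched. They are printed for a pair of S-phase bound members, Hist1h1b and Hist1h2ae, and a pair higher in low-cycle cells, Hist1h1c and Hist1h2ac, so that shared and unshared motifs can be read. Capitals mark the octamer ATTTGCAT (read by the factors Pou2f1 and Pou2f2), the CCAAT box, the TATA box (letters TATAA) and the H1 box AAACACA, on either strand and run together where they overlap.
Hist1h1b, chr13:21780576-21780875, minus strand: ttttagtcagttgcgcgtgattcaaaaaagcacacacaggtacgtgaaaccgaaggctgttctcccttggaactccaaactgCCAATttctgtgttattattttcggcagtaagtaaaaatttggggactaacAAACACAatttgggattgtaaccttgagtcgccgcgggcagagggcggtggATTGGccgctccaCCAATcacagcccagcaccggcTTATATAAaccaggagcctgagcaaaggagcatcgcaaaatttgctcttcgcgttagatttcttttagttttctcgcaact
Hist1h1c, chr13:23738557-23738856, plus strand: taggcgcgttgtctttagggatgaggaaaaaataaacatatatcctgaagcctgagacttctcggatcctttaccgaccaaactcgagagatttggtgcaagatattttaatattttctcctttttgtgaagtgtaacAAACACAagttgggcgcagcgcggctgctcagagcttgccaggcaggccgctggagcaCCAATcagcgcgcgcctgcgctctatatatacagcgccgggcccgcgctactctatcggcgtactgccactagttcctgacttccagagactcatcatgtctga
Hist1h2ac, chr13:23683910-23684209, minus strand: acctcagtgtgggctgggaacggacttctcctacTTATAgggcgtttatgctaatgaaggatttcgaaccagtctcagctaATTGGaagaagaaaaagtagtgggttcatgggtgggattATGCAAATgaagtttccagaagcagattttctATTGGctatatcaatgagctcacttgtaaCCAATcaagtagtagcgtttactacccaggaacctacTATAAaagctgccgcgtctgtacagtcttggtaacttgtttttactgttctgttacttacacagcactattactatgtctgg
Hist1h2ae, chr13:23571171-23571470, minus strand: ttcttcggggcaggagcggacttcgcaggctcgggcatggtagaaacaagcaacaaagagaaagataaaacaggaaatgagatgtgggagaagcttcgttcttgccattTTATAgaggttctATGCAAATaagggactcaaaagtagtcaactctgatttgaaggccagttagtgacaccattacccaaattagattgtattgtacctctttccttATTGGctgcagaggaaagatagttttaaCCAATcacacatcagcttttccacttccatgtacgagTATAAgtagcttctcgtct

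The motifs present differed by histone type. The octamer was found in 7 of 18 H2A and 6 of 16 H2B windows and in none of the H1, H3 and H4 windows, against 1.74% of all 32851 promoter windows. CCAAT was found in every H1, H2A, H2B and H3 window matched and in 3 of 12 H4 windows, against 37.4% of all windows. TATAA was found in 49 of the 62 windows, against 24.9% of all. The H1 box, added after the values had been seen, was found in 5 of the 6 H1 windows, against 7.18% of all, and was present both in Hist1h1b and in Hist1h1c, whose ratios of S-high over low-cycle cells lay far apart. The starts of Hist1h2ac and Hist1h2bc lie 251 bases apart on opposite strands, so the Hist1h2ac window printed above also covers the sequence before Hist1h2bc. Both genes were over 2-fold higher in Diff_MK. Like Hist1h2bc, Hist1h2ac was lower in S-high than in low-cycle cells of Diff_MK (0.280, 0.126 to 0.547), while in MK its interval held 1 (0.741, 0.416 to 1.32). The window holds 1 octamer, on the strand read toward Hist1h2bc.

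The factors that make and handle histone messengers and proteins were mostly lower in Diff_MK. Of 17 listed genes for histone transcription and messenger processing, 16 were measured, 15 (93.8%) with a ratio below 1, against 67.5% of all genes, and 4 (25.0%) at least 1.5-fold lower, against 10.4%. Their median log2 ratio was -0.39, beside -0.15 over all genes. Slbp, which binds the stem-loop, had 41.8 CPM in Diff_MK and 69.7 CPM in MK (0.599, 0.577 to 0.622). Npat, the coactivator of histone transcription at S phase, had 21.1 and 27.6 CPM (0.764, 0.723 to 0.807), and Ccne2, a cyclin of S-phase entry, 8.07 and 14.9 CPM (0.540, 0.497 to 0.587). Cpsf2, a subunit of the complex that cleaves messenger ends, had 70.1 CPM in Diff_MK and 111.2 CPM in MK (0.631). Srrt, a partner of the cap-binding complex, had 49.5 and 71.1 CPM (0.695). Eri1, an exonuclease that trims the stem-loop end, had 64.9 and 75.3 CPM (0.862).

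All 21 listed histone chaperones were measured, 19 (90.5%) with a ratio below 1 and 7 (33.3%) at least 1.5-fold lower, at a median log2 ratio of -0.43. Nap1l1, a chaperone of H2A and H2B, had 718 CPM in Diff_MK and 1139 CPM in MK (0.630, 0.624 to 0.636). Nasp, which binds H3 and H4, had 153.0 and 199.9 CPM (0.766, 0.750 to 0.781). Chaf1b, a subunit of the assembly factor CAF-1 at replication forks, had 19.0 CPM in Diff_MK and 39.9 CPM in MK (0.477, 0.452 to 0.503). Asf1b, which hands over H3 and H4, had 46.1 and 75.4 CPM (0.612), and Ssrp1, of the FACT complex, 176.4 and 209.6 CPM (0.841). Many of these genes were higher in S-high than in low-cycle cells, but not all. At least 1.5-fold higher were 18 of the 21 chaperones in Diff_MK and 11 in MK, and 10 of the 16 processing genes in Diff_MK and 8 in MK, against 25.7% and 12.3% of all genes. Asf1b was 8.20-fold higher in S-high cells of Diff_MK and 4.98-fold in those of MK, and Slbp 3.81-fold and 2.44-fold, the highest of their lists in both libraries. At the other end in MK were the chaperone gene Ubn1 at 0.892 and the processing gene Lsm10 at 0.944.

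The replication-independent histone genes for the most part give polyadenylated messengers and supply histones throughout the cell cycle. Those listed were captured at far more UMIs, summing to 4963 CPM in Diff_MK and 5847 CPM in MK. Of 11 listed, 10 were measured, 9 with a ratio below 1 and 1 (10.0%) at least 1.5-fold lower, at a median log2 ratio of -0.22. The last share and the median lie near those of all genes (10.4% and -0.15). H3f3b, encoding the H3 variant of active chromatin, had 1804 CPM in Diff_MK and 1992 CPM in MK (0.906, 0.900 to 0.911), and H3f3a, for the same protein, 1050 and 1076 CPM (0.976, 0.968 to 0.984). H2afz had 996 CPM in Diff_MK and 1497 CPM in MK (0.666, 0.660 to 0.671), and H2afx, for the variant marked at DNA breaks, 131.3 and 177.5 CPM (0.740, 0.724 to 0.756). H2afx (3.85-fold in Diff_MK, 2.50-fold in MK) and H2afz (2.39-fold, 1.53-fold) were higher in S-high than in low-cycle cells, while H3f3a was at 0.977 and 1.19. Of the 10, 6 in Diff_MK and 5 in MK were at least 1.5-fold higher in S-high cells. The 1 gene of this list with a ratio above 1 was the linker histone gene H1f0, associated with resting cells, at 157.3 CPM in Diff_MK and 134.8 CPM in MK (1.17, 1.14 to 1.19).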

How the data were processed

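Single-cell RNA libraries (10x 3′ v3) of GFP-sorted MK keratinocytes were grouped by title, 1 library per group. The values are deposited UMI counts, whole numbers for each gene in each cell. The file headers name Cell Ranger 6.1.2, and the submitters' processing notes name mm10. Which annotation served is not given in the sources used here. Tag libraries were left out. Cells with 1000 or more genes and at most 15% mitochondrial UMIs were kept, which removed 657 Diff_MK and 605 MK barcodes. No doublet caller was run, and a version without the 5% of cells with the most UMIs was an alternative. UMIs were summed per library or class and scaled to CPM. Fold ratios carry exact conditional binomial 95% intervals and shares Clopper-Pearson intervals. No p-value was computed, for want of replicates, and members past 1.5-fold that reached 1 CPM in either library were counted beside all genes. Thinning to 7500 UMIs left out 635 Diff_MK and 337 MK cells. Class CPM used all UMIs of a class's cells.

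The members, lists and rules were chosen with earlier results of these data known. Members named are the 3 most abundant of each histone type, the 3 at either end of the ratio of Diff_MK over MK, and the 3 at either end of the S-high over low-cycle ratio among those reaching 5 CPM. Of the other lists, the 3 most abundant genes and the 2 with the largest log2 ratio are named, with Slbp, Npat and Nasp. Further genes named, Krt15, the transcript-end groups and the H1 box were chosen after their values were seen. Transcripts came from GENCODE vM21 (GRCm38), with all 67 genes found by identifier, and promoters from RefSeq (GRCm38.p6). The stem-loop was searched as a fully paired GG to CC hairpin. Python 3.11.15, numpy 2.4.6, scipy 1.17.1, pandas 2.3.3 and matplotlib 3.10.9 were used, and the steps were tested on simulated data.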

Additional observations from a re-analysis of the deposited data

How the results depend on the processing

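No paired analysis was possible because each group has 1 library, which also means that no library could be left out. Scaling by the median ratio of 8765 genes (median log2 ratio -0.15) in place of total UMIs gave ratios of Diff_MK over MK of 0.987 for all members, 0.945 for H1, 0.864 for H2A, 1.67 for H2B, 1.03 for H3 and 1.01 for H4, so that H3 and H4 crossed 1. Weighting each cell equally gave 0.865 for all members, 0.815 for H1, 0.715 for H2A and 1.66 for H2B. The 5 higher members were 2 at a minimum of 10 CPM. The 6 lower members were 10 with equal cell weights, 10 at a minimum of 10 UMIs in all, 0 at 10 CPM, 3 at a fold of 2, and 3 among the 29 members with under 50% of transcript windows shared with another gene, an alternative chosen after seeing the data. Over 5 alternatives each, the ratios of 20 of the 22 members named by the rule stayed on the same side of 1, and Hist1h2be (1.02) and Hist1h3e (1.07) crossed it under median scaling. Medians of the members and of the 3 other gene lists stayed below 0 under every alternative run. With total UMIs the median log2 ratio was -0.21 for the members and -0.22 for the replication-independent histones, beside -0.15 over the 8765 genes. Scaling by the median ratio takes that -0.15 out of each, which is most of both values.

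Class values moved with the class definition but kept their order between libraries. The S-high share of Diff_MK and MK cells was 8.11% and 24.5% with an alternative S-phase list, 3.01% and 13.1% as the top 10%, 15.4% and 41.4% as the top 30%, 8.33% and 25.9% without the 5% of cells with the most UMIs, and 8.74% and 27.2% with thinning to 5000 UMIs. Under the same settings, S-high over low-cycle histone CPM was 2.48, 3.003, 2.50, 2.83 and 2.44 in Diff_MK and 3.13, 3.67, 3.43, 3.76 and 3.35 in MK. Diff_MK over MK in S-high cells was 1.17 with the alternative list, 1.29 and 1.15 for the top 10% and 30%, and 1.14 at 5000 UMIs. The ratio with equal deciles was 1.11 with the alternative list and 1.13 at 5000 UMIs. The share of cells with a histone UMI depends on depth: 95.7% of Diff_MK and 95.2% of MK cells without thinning, and 83.0% and 83.1% at 5000 UMIs.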

Other observations

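The low-cycle Diff_MK cells were not uniform in their histone transcripts. Krt15, a keratin of basal and follicle stem cells, was detected in 1970 of them and not in 1274, a split chosen after the values had been seen. Hist1h1c stood at 116.9 CPM in low-cycle Diff_MK cells with a Krt15 UMI, 60.5 CPM in those without, and 34.6 CPM in low-cycle MK cells without one. Hist1h2bc stood at 84.8, 59.8 and 33.6 CPM in the same order, and Hist1h4i at 46.0, 29.4 and 23.2 CPM. Hist1h1b ran the other way within Diff_MK, at 29.4 CPM with and 38.2 CPM without a Krt15 UMI, beside 32.4 CPM in MK. Cells with a Krt15 UMI were shallower, with a median of 11590 UMIs against 14606 without, and had a median of 2 against 4 S-phase list UMIs after thinning. The part of these in the values was not tested.

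How often members were detected in the same cells differed by gene. Of the 1483 thinned Diff_MK cells with a Hist1h2bc UMI, 26.5% also had a Hist1h1b UMI, and of the 664 such MK cells 38.6%. Of cells with a Hist1h2ae UMI, 74.8% in Diff_MK and 80.4% in MK also had Hist1h1b. The share of all thinned cells with Hist1h1b was 40.8% in Diff_MK and 57.3% in MK, which lies between these values in each library. Hist1h1c, the other abundant member higher in low-cycle cells, did not lie on one side of it: of the cells with a Hist1h1c UMI, 33.9% in Diff_MK (of 2087) and 61.8% in MK (of 1251) also had Hist1h1b.

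The 3 members with the lowest ratio, Hist1h2ag, Hist1h2bk and Hist1h2bj, are neighbours within 7807 bases of chromosome 13 (22035870 to 22043676 on GRCm38). None of the 4 measured members of that block of 5 genes had a ratio above 1, and the other was Hist1h4i at 0.885. In the largest block, from 23531050 to 23764406 on the same chromosome, 8 of 21 measured members had a ratio above 1, and 4 of the 5 members that were 1.5-fold higher in Diff_MK lie there. That block holds 21 of the 42 measured members, and of all 11511 genes 3744 had a ratio above 1. In the block from 21715763 to 21837530, which holds Hist1h1b, 1 of 9 had a ratio above 1. Blocks were compared after the values had been seen, and neighbouring histone genes share sequence.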
